A study of Mus musculus with 6 samples.

Results

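This account concerns 10 genes that encode surface or progenitor markers of fibroblasts, namely *Pi16*, *Dpp4*, *Ly6a*, *Ly6c1*, *Cd248*, *Pdpn*, *Fap*, *Eng*, *Thy1* and *Vcam1*. They were chosen by symbol from the 27179 genes of the deposited table. The rule names the genes and uses no measured value, but it was set with earlier results of these data known. Bulk RNA-seq compared 2 populations of mammary fibroblasts, CD34hi and CD34lo, sorted as Lin-CD24-Pdgfrα+ cells from female FVB/N mice (FVB/NJ in the methods) at 6 weeks of age. The labels name no transgene or treatment for either population. Each of 3 pools held 2 mice and was sorted into both populations, which gave 3 CD34hi and 3 CD34lo libraries. Lin- means depleted for cells with CD31, CD45 or TER-119, the markers of endothelial cells, leukocytes and erythroid cells. None of the 10 genes encodes an antigen used in the sort. All 10 were counted well above the limit of 3 counts in every library, and all 10 passed the filter on low counts. Among the CD34hi libraries, that of pool 3 stood apart: the chi-square per gene was 115 and 82.3 against those of pools 1 and 2, and 24.1 between these, while it was 62.2 to 77.7 between CD34lo libraries. Without that library the same number of the 10 genes, 6 and 2, was called in each direction.

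In many mouse tissues, fibroblasts of the connective tissue sheath around vessels and ducts (the adventitia) carry PI16, DPP4 and LY6A (Sca-1), and such cells are regarded as a progenitor-like state from which more specialized fibroblasts can arise. PDPN, THY1, FAP, ENG and VCAM1 are used more broadly to recognize or subdivide stromal cells. Most of these proteins sit in the membrane as peptidases, adhesion molecules or coreceptors, and LY6A, LY6C1 and THY1 are held there by a lipid (GPI) anchor. RNA levels do not measure the protein at the surface.

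Of the 10 genes, 6 were higher in CD34hi (*Pi16*, *Dpp4*, *Ly6c1*, *Cd248*, *Ly6a* and *Pdpn*), 2 were higher in CD34lo (*Vcam1* and *Thy1*) and 2 passed the test in neither direction (*Fap* and *Eng*). All 15219 genes that passed the filter were tested together with the quasi-likelihood test of edgeR, at an adjusted p-value (Benjamini-Hochberg) of 0.05. Of all tested genes, 16.9% were called higher in CD34hi and 18.7% higher in CD34lo, 35.6% in all. The median log2 fold change (CD34hi minus CD34lo) was 2.14 over the 10 genes and -0.0064 over all tested genes. In bulk samples, fewer cells of a type and less RNA per cell cannot be told apart.

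**Figure D1:**
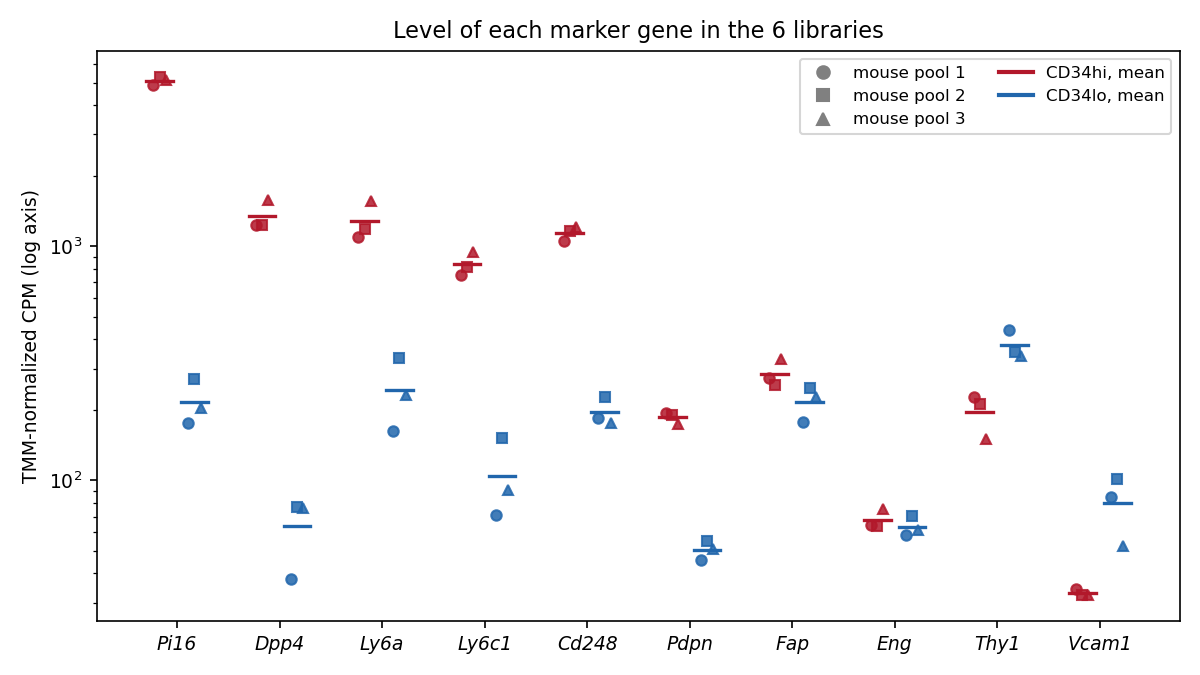
Level of each of the 10 genes (TMM-normalized CPM, log axis) in the 3 CD34hi (red) and 3 CD34lo (blue) libraries; symbols mark the mouse pools and horizontal lines the group means. The CD34hi libraries lay above the CD34lo libraries for *Pi16* through *Fap* and below them for *Thy1* and *Vcam1*, and those of *Eng* overlapped.

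The largest differences were those of *Pi16* and *Dpp4*. *Pi16* (gene 74116, chromosome 17, 29318882 to 29328902, plus strand) encodes peptidase inhibitor 16, a secreted or membrane-held protein of the CAP family. It had 4862, 5297 and 5108 CPM (counts scaled by the TMM-normalized library total) in the CD34hi libraries of pools 1, 2 and 3, and 176, 270 and 203 CPM in the CD34lo libraries. Every CD34hi library was thus far above every CD34lo library. The means were 5089 ± 218 and 216 ± 48.2 CPM (SD, n = 3 each), so that the CD34lo level was 4.25% of the CD34hi level. This was a log2 fold change of 4.56 (SE 0.21, edgeR adjusted p = 2.58e-06), and within pools the level was 27.6, 19.6 and 25.2 times higher in CD34hi. By the size of the log2 fold change towards CD34hi, *Pi16* was at place 95 of 15219 tested genes and *Dpp4* at place 104.

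*Dpp4* (gene 13482, chromosome 2, 62330073 to 62412231, minus strand) encodes dipeptidyl peptidase 4 (CD26), which cuts pairs of residues from the amino end of peptides such as the chemokine CXCL12. Its CD34hi libraries had 1234, 1226 and 1568 CPM and its CD34lo libraries 37.9, 76.8 and 76.0 CPM. The groups did not overlap, and the CD34lo library of pool 1 was the lowest of all 6. The means were 1343 ± 195 and 63.6 ± 22.2 CPM (SD, n = 3 each), a log2 fold change of 4.40 (SE 0.30, edgeR adjusted p = 1.46e-05). The CD34hi level was 32.6, 16.0 and 20.6 times the CD34lo level within pools 1, 2 and 3.

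The stretches before the start sites of 3 of the genes that were higher in CD34hi, and of *Eng*, which was not called, are shown so that the genes with and without a difference can be compared at their starts. The 250 bases before the annotated start are given 5′ to 3′ on the gene's strand, with capitals marking matches to a TATA box, a CCAAT box or a TEAD motif, whose letters and positions follow the sequences. The sequences come from RefSeq on build GRCm38.p6. They lie at chr17:29318632-29318881 (plus strand) for *Pi16*, chr2:62412232-62412481 (minus strand) for *Dpp4*, chr15:75048838-75049087 (minus strand) for *Ly6c1* and chr2:32646345-32646594 (plus strand) for *Eng*.
Pi16: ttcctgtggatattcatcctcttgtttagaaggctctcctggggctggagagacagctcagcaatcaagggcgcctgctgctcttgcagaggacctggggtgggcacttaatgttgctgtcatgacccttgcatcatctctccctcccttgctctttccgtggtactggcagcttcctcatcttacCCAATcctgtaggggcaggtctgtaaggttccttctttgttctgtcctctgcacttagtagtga
Dpp4: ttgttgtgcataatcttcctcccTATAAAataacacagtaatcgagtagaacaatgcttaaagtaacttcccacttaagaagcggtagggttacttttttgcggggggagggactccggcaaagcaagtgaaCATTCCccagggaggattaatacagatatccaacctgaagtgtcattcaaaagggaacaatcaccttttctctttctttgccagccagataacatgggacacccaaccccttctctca
Ly6c1: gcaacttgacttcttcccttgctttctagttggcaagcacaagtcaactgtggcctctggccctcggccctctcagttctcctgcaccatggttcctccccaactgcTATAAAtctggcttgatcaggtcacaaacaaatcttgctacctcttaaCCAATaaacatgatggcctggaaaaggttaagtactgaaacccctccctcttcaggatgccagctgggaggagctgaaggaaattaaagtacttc
Eng: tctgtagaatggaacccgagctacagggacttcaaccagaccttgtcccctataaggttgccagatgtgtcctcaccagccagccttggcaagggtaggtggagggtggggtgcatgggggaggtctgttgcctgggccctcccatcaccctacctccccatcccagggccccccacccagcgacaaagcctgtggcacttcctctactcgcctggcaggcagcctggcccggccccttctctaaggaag

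The table of start regions held windows for 5 of the 10 genes (*Pi16*, *Dpp4*, *Ly6c1*, *Pdpn* and *Eng*), and *Ly6a*, *Thy1*, *Fap*, *Cd248* and *Vcam1* had none. *Ly6c1* had 2 annotated starts, and the sequence shown and the distances given are those of the start further upstream. The window of its other start held none of the motifs. Each window ran from 250 bases before to 50 bases after the start and was searched on both strands for 5 motifs, none of which contains another. TATAAA, the letters of a TATA box, stood 227 to 222 bases before the start of *Dpp4* and 143 to 138 bases before that of *Ly6c1*. Of all 32851 windows 13.6% held it, and whether the matches act as a TATA box was not tested. CCAAT stood 64 to 60 bases before the start of *Pi16* and 95 to 91 bases before that of *Ly6c1*, and was in 37.4% of all windows. CATTCC, a core motif of TEAD factors, stood 118 to 113 bases before the start of *Dpp4* and was in 14.7% of all windows. GGGCGG, the GC box, was found only past the start, in *Pdpn*, and was in 35.7% of all windows. TGACTCA, the AP-1 site, was in none of these windows and in 5.20% of all. No motif was thus shared by *Pi16* and *Dpp4*, and the window of *Eng* held none of the 5. The 250 bases before the start were 52.4% G or C in *Pi16*, 43.6% in *Dpp4*, 43.2% in *Pdpn*, 48.4% and 53.2% at the starts of *Ly6c1* and 62.4% in *Eng*, with a median of 52.4% over all windows.

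*Ly6a* and *Ly6c1* encode small GPI-anchored proteins of the Ly6/uPAR family. LY6A (Sca-1) is widely used to sort progenitors, and LY6C1 is also carried by endothelial cells and some leukocytes. *Ly6a* (gene 110454, chromosome 15, 74994877 to 74997888, minus strand) had 1098, 1179 and 1553 CPM in CD34hi and 162, 332 and 232 CPM in CD34lo libraries. The groups did not overlap. Their means of 1277 ± 243 and 242 ± 85.3 CPM (SD, n = 3 each) gave a log2 fold change of 2.40 (SE 0.27, edgeR adjusted p = 0.000198). Within pools, the CD34hi level was 6.77, 3.55 and 6.69 times the CD34lo level.

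*Ly6c1* (gene 17067, chromosome 15, 75044018 to 75048837, minus strand) had 755, 815 and 940 CPM in CD34hi and 71.0, 151 and 91.2 CPM in CD34lo libraries, again without overlap. The means were 836 ± 94.6 and 104 ± 41.6 CPM (SD, n = 3 each), a log2 fold change of 3.00 (SE 0.28, edgeR adjusted p = 6.44e-05). The CD34hi level was 10.6, 5.40 and 10.3 times higher within pools. Pool 2 gave the smallest fold for both genes. The ratio of *Ly6a* to *Ly6c1* counts was 1.46, 1.45 and 1.65 in CD34hi and 2.29, 2.20 and 2.55 in CD34lo libraries. *Ly6a* therefore kept a larger part of its CD34hi level in CD34lo cells (19.0%) than *Ly6c1* did (12.5%). The log2 ratio differed by -0.63 (CD34hi minus CD34lo), and every CD34lo ratio was above every CD34hi ratio. An exact two-sided permutation test over the 6 libraries, which did not use the pairing by pool, gave p = 0.1. That is the smallest p that 3 libraries against 3 allow without pairing, and exchange within the 3 pools only would allow no p as small.

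Both genes are part of a family of near copies on chromosome 15, which bears on how reads could be assigned. Over the coding bases of GENCODE transcripts, *Ly6c1* and its neighbor *Ly6c2* were identical at 384 of 393 positions (97.7%), and their transcripts shared an unbroken run of 188 bases. *Ly6a* and *Ly6c1* were identical at 83.7% of 393 aligned positions, with a longest shared run of 89 bases. The first 120 coding bases show where the copies differ, with capitals marking bases that differ from *Ly6c1*.
Ly6c1: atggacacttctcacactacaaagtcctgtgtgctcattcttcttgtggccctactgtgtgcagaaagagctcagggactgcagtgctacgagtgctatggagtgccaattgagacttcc
Ly6c2: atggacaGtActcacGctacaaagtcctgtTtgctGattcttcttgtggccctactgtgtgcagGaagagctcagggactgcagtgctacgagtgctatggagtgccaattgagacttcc
Ly6a: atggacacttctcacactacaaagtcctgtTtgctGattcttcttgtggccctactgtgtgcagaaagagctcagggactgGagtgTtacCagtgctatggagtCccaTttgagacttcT

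In this stretch *Ly6c2* differed from *Ly6c1* at 6 bases and *Ly6a* at 8. Counts of *Ly6c1* and *Ly6c2* are uncertain for this reason, since the treatment of reads that match several genes is not given in the sources used here. *Ly6c2* had 28.3 ± 4.04 CPM in CD34hi and 3.02 ± 0.773 CPM in CD34lo (SD, n = 3 each), a log2 fold change of 3.25 (edgeR adjusted p = 1.46e-05). It was therefore counted at a small part of the *Ly6c1* level in both populations, and in the same direction.

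The stretch of chromosome 15 from *Psca* to *Gpihbp1*, 883 kb long, held 27 genes of the table. Of the 12 that were tested, 7 were higher in CD34hi, *Ly6a* and *Ly6c1* among them. Of the others, 1 was higher in CD34lo and 4 passed the test in neither direction. Of all tested genes, 16.9% were called higher in CD34hi and 18.7% higher in CD34lo. Within the stretch, *Ly6a* and *Ly6c1* lay 46.1 kb apart. On the side of lower coordinates, *Ly6i* had a log2 fold change of 1.58 (edgeR adjusted p = 0.00467) and *Ly6e* of 1.15 (adjusted p = 0.0429). *Ly6i* was a low gene with 5.40 CPM in CD34hi, whereas *Ly6e* had 402 ± 255 CPM there and thus a wide spread. On the other side, *Ly6a2* had a log2 fold change of 2.77 at only 0.689 CPM in CD34hi, and its identity to its neighbors was not measured. *Lynx1*, 247 kb below *Ly6a*, had a log2 fold change of 0.50 (adjusted p = 0.0205). *Ly6h*, 570 kb above *Ly6a*, went the other way, with 0.175 CPM in CD34hi and 1.40 CPM in CD34lo (log2 fold change -3.00, adjusted p = 0.00145). *Ly6a* and *Ly6i* were identical at 86.3% of their coding bases, and *Ly6a* and *Ly6e* at 53.7%. The transcripts of *Ly6a* and *Ly6i* shared a run of 80 bases, so the counts of *Ly6i* beside the much higher *Ly6a* are uncertain as well. The number of 7 genes higher in CD34hi in this stretch carries the same uncertainty.

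**Figure D2:**
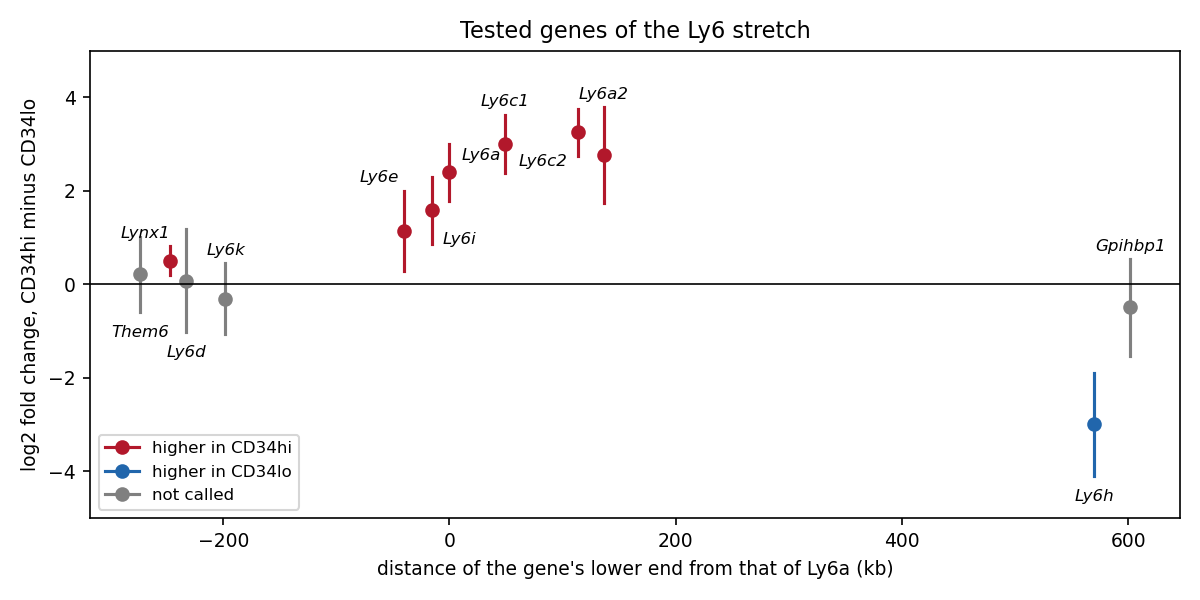
Log2 fold change (CD34hi minus CD34lo, points) with its 95% confidence interval (lines) for the 12 tested genes between *Psca* and *Gpihbp1* on chromosome 15, by the distance of each gene's lower end from that of *Ly6a* (kb). The 6 genes from *Ly6e* to *Ly6a2* were all higher in CD34hi, *Lynx1* was slightly higher and *Ly6h* was lower. Counts of *Ly6c1*, *Ly6c2* and *Ly6i* are uncertain, since their transcripts share long runs of bases with those of near copies.

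*Cd248* and *Pdpn* encode transmembrane glycoproteins. *Cd248* (gene 70445, chromosome 19, 5068078 to 5070640, plus strand) encodes endosialin, a C-type lectin-like protein of stromal cells that binds fibronectin. Its CD34hi libraries had 1047, 1165 and 1206 CPM and its CD34lo libraries 184, 226 and 175 CPM. The replicates of each group were close together and the groups far apart, at 1139 ± 82.7 and 195 ± 27.2 CPM (SD, n = 3 each). *Cd248* had a log2 fold change of 2.55 (SE 0.15, edgeR adjusted p = 8.24e-06), with a CD34hi level 5.70, 5.15 and 6.89 times higher within pools.

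*Pdpn* (gene 14726, chromosome 4, 143267422 to 143299507, minus strand) encodes podoplanin, a mucin-like protein that binds the platelet receptor CLEC-2 (*Clec1b*) and links to the cell cortex through ERM proteins. It had 193, 190 and 173 CPM in CD34hi and 45.5, 54.8 and 51.1 CPM in CD34lo libraries. The means were 186 ± 10.7 and 50.5 ± 4.65 CPM (SD, n = 3 each), without overlap. The log2 fold change was 1.88 (SE 0.12, edgeR adjusted p = 1.08e-05), the smallest among the 6 genes that were higher in CD34hi. Within pools the level was 4.24, 3.47 and 3.39 times higher.

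*Thy1* and *Vcam1*, adhesion molecules with immunoglobulin domains, were higher in CD34lo. *Vcam1* (gene 22329, chromosome 3, 116110020 to 116129688, minus strand) binds integrins that hold the α4 or α9 chain. It had 34.2, 32.5 and 32.4 CPM in CD34hi and 84.9, 101 and 52.4 CPM in CD34lo libraries. The CD34hi libraries were nearly alike, whereas the CD34lo libraries were widely spread, all of them above the CD34hi values. The means were 33.0 ± 1.01 and 79.6 ± 25.0 CPM (SD, n = 3 each). For *Vcam1* the log2 fold change was -1.27 (SE 0.22, edgeR adjusted p = 0.00195), and the CD34lo level was 2.48, 3.13 and 1.62 times the CD34hi level within pools.

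*Thy1* (gene 21838, chromosome 9, 44043384 to 44048579, plus strand) encodes the GPI-anchored CD90, which binds integrins and syndecan 4. It had 226, 213 and 150 CPM in CD34hi and 440, 354 and 340 CPM in CD34lo libraries. Every CD34lo library was above every CD34hi library, at 378 ± 54.4 against 196 ± 40.2 CPM (SD, n = 3 each). The log2 fold change was -0.95 (SE 0.18, edgeR adjusted p = 0.00378), and the CD34lo level was 1.95, 1.66 and 2.26 times higher within pools. *Thy1* was thus well above the counting limit in both populations.

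*Fap* (gene 14089, chromosome 2, 62500945 to 62574021, minus strand) encodes fibroblast activation protein, a prolyl peptidase of stromal cells related to DPP4. It had 272, 254 and 329 CPM in CD34hi and 177, 247 and 227 CPM in CD34lo libraries. The lowest CD34hi library (254 CPM) was just above the highest CD34lo library (247 CPM), and both came from pool 2. The log2 fold change was 0.40 (SE 0.16, 95% confidence interval 0.025 to 0.77, edgeR adjusted p = 0.0913). Once the pools entered the fit as a replicate block, the adjusted p was 0.0502 in edgeR and 0.0367 in limma-voom, so the call depended on the fit. A difference of up to 0.77 on the log2 scale lay within the interval.

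*Eng* (gene 13805, chromosome 2, 32646595 to 32682669, plus strand) encodes endoglin, a coreceptor of the TGF-β family that binds BMP9 and BMP10. It had 64.4, 63.6 and 75.4 CPM in CD34hi and 58.4, 70.1 and 61.4 CPM in CD34lo libraries. The groups overlapped, at 67.8 ± 6.63 and 63.3 ± 6.07 CPM (SD, n = 3 each). The log2 fold change was 0.10 (SE 0.12, 95% confidence interval -0.18 to 0.38, edgeR adjusted p = 0.565). It was the only gene of the 10 whose span overlapped other genes of the table. *Fpgs*, on the opposite strand, had 3975 counts in all against 15630 for *Eng*. Only reads from bases that both genes share cannot be told apart if strand was not used in counting. The width of the overlap was not measured.

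**Figure D3:**
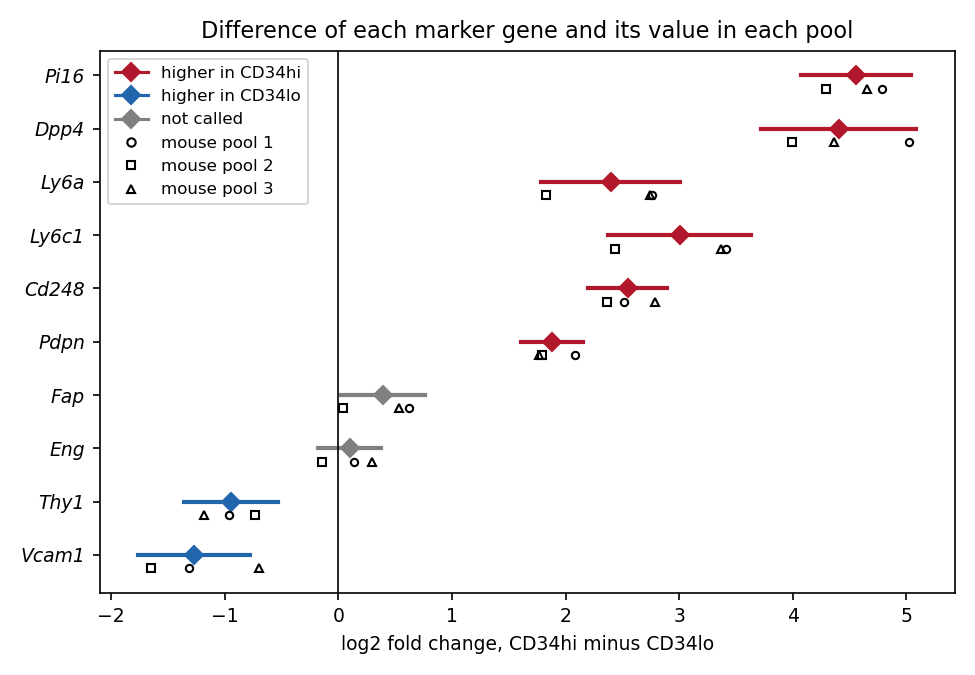
Log2 fold change (CD34hi minus CD34lo) of each of the 10 genes with its 95% confidence interval (diamonds and lines), and the log2 ratio of CD34hi to CD34lo CPM in each mouse pool (open symbols). The values of *Fap* and *Eng* lay closest to 0, and the pool values of the other 8 genes all lay on the same side of 0 as the fitted value.

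Counting genes by overlap of the libraries gave a similar picture. For 7 of the 10 genes, the 6 called ones and *Fap*, all CD34hi libraries were above all CD34lo libraries, as they were for 24.8% of all tested genes. For *Thy1* and *Vcam1* all CD34lo libraries were above all CD34hi libraries, as for 25.3% of all tested genes. The median coefficient of variation of the 10 genes was 10.5% among CD34hi and 19.5% among CD34lo libraries, against 12.9% and 16.2% over all tested genes. Among the CD34lo libraries, that of pool 2 had the highest level of 9 genes (all but *Thy1*) and that of pool 1 the lowest level of 7. For 5 of the 6 genes that were higher in CD34hi, pool 2 also gave the smallest fold. *Cd34* was likewise lowest in pool 1 and highest in pool 2 among the CD34lo libraries, with 476, 793 and 632 CPM in pools 1, 2 and 3, against 2490, 2639 and 2584 CPM in CD34hi. The part of the *Cd34* level in the spread of the marker genes was not tested.

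Levels of different genes were compared per length, as RPKM, which is CPM divided by the gene length in kilobases. In CD34hi fibroblasts the order of mean levels was *Pi16* (2267 RPKM), *Ly6a* (1542 RPKM), *Ly6c1* (508 RPKM), *Cd248* (445 RPKM), *Dpp4* (213 RPKM), *Thy1* (113 RPKM), *Fap* (106 RPKM), *Pdpn* (105 RPKM), *Eng* (19.0 RPKM) and *Vcam1* (9.72 RPKM). The libraries of *Ly6c1* and *Cd248*, of *Thy1* and *Fap*, and of *Fap* and *Pdpn* overlapped, so the ranges of these neighbors in the order were not separate. Within libraries, *Ly6c1* was above *Cd248* in 3 of 3, *Thy1* above *Fap* in 2 of 3 and *Fap* above *Pdpn* in 1 of 3. In CD34lo fibroblasts *Ly6a* (292 RPKM) and *Thy1* (218 RPKM) had the highest levels and overlapped. *Pi16* (96.3 RPKM), *Fap* (80.4 RPKM), *Cd248* (76.1 RPKM) and *Ly6c1* (63.4 RPKM) followed, each overlapping its neighbor. *Pdpn* (28.5 RPKM), *Vcam1* (23.4 RPKM) and *Eng* (17.7 RPKM) overlapped in turn, and *Dpp4* (10.1 RPKM) was below them all. *Dpp4* thus stood at place 5 in CD34hi and at place 10 in CD34lo, while *Thy1* went from place 6 to place 2.

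**Figure D4:**
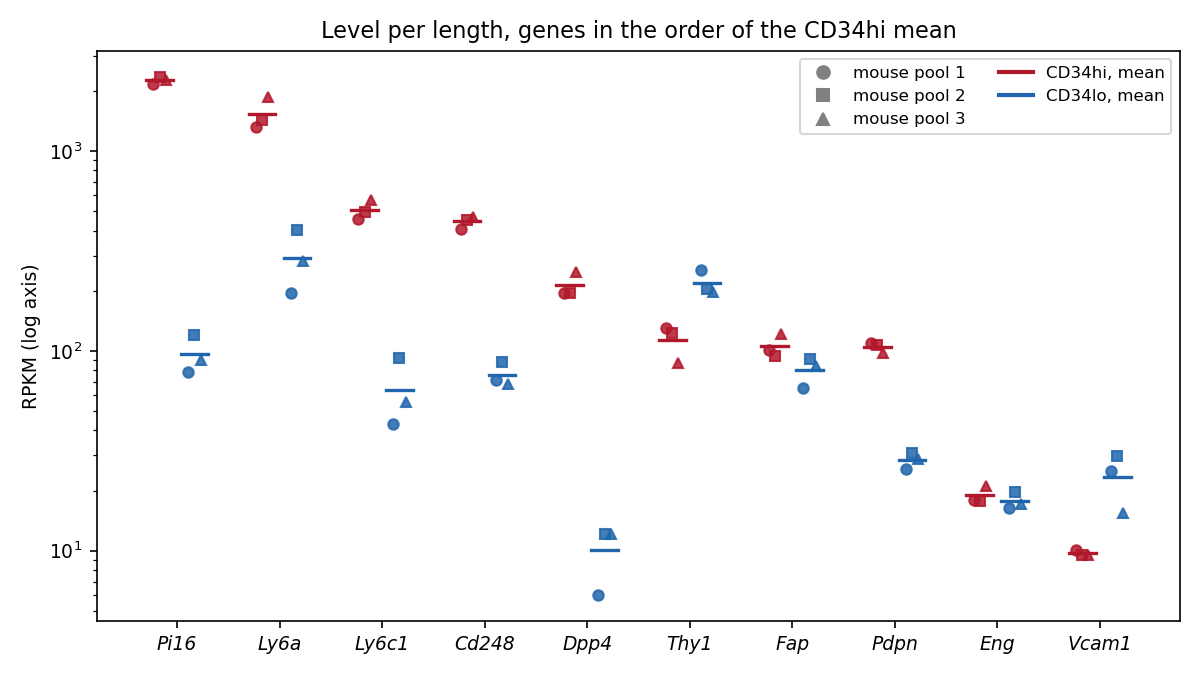
Level per length (RPKM, log axis) of the 10 genes in the 3 CD34hi (red) and 3 CD34lo (blue) libraries, ordered by the CD34hi mean; symbols mark the mouse pools and horizontal lines the group means. *Dpp4* moved from the middle of the order in CD34hi to the lowest level in CD34lo, and *Eng* stayed at about the same level.

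The pair of related peptidases, *Dpp4* and *Fap*, are neighbors on chromosome 2 but differed between the populations to unequal extents. The count ratio of *Dpp4* to *Fap* was 4.54, 4.83 and 4.77 in CD34hi and 0.215, 0.311 and 0.335 in CD34lo libraries. *Dpp4* counts thus exceeded *Fap* counts in every CD34hi library and were below them in every CD34lo library. The log2 ratio differed by 4.06 (exact two-sided permutation p = 0.1, the smallest possible without pairing by pool). The genes lay 88.7 kb apart, and their coding bases were identical at 59.6% of 2256 aligned positions with a longest shared run of 21 bases in the transcripts. Between them lay only *Gcg*, the glucagon gene, which had 0.413 ± 0.236 CPM in CD34hi and 5.38 ± 3.51 CPM in CD34lo (SD, n = 3 each; log2 fold change -3.70, edgeR adjusted p = 0.00156). On the other side of *Dpp4*, at 3.33 kb, *Slc4a10* had 4.49 CPM in CD34hi and 0.133 CPM in CD34lo (log2 fold change 4.98, adjusted p = 1.31e-05). Of the 6 tested relatives of DPP4, only *Dpp6* was called, higher in CD34hi (log2 fold change 2.15, adjusted p = 0.0286) at no more than 1.16 CPM. *Dpp7*, *Dpp8*, *Dpp9*, *Prep* and *Prepl* had adjusted p-values of 0.291 or more.

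The other genes known from adventitial progenitors were counted next to *Pi16* and *Dpp4*. All 16 tested genes of a list of 17 were higher in CD34hi, with a median log2 fold change of 2.92, against 16.9% of all genes called in that direction. *Bst1* was not tested and was at 0.166 CPM or less. *Smpd3*, a sphingomyelinase, had the largest log2 fold change (5.39, edgeR adjusted p = 6.92e-06). *Anxa3* (5.11), *Sema3c* (4.76), *Efhd1* (4.51) and *Cd55*, a complement regulator (4.05), came next. *Wnt2* (0.85, adjusted p = 0.0127) and *Has1*, a hyaluronan synthase (1.14, adjusted p = 0.0273), had the smallest. The list was assembled with earlier results of these data known, so its direction is not independent evidence.

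The other surface antigens used on mesenchymal cells went mostly the other way. Of 18 tested, 2 were higher in CD34hi, 10 were higher in CD34lo and 6 passed the test in neither direction, with a median log2 fold change of -0.93. With the replicate block, 3 were higher in CD34hi and 11 in CD34lo, the added genes being *Cd44* and *Ngfr* (-1.94, block adjusted p = 0.0113). *Ngfr* had 5.50, 44.3 and 3.02 CPM in CD34hi and 36.3, 47.2 and 26.0 CPM in CD34lo libraries, with overlap of the groups. Without the block its log2 fold change was -1.06 (SE 0.82, edgeR adjusted p = 0.352). Of all tested genes, 16.9% were called higher in CD34hi and 18.7% higher in CD34lo without the block. Among the 10 antigens higher in CD34lo, *Pdgfra* encodes an antigen of the sort, and *Mcam* and *Cspg4* are also pericyte markers. *Nt5e* (CD73) was higher in CD34hi at 98.9, 106 and 63.5 CPM against 10.3, 24.1 and 23.2 CPM (log2 fold change 2.23, edgeR adjusted p = 0.000912), and so was *Alcam* (1.85, adjusted p = 0.000388). *F3*, tissue factor, had the largest difference towards CD34lo, with 24.7, 18.9 and 25.3 CPM in CD34hi and 230, 279 and 278 CPM in CD34lo libraries (-3.51, adjusted p = 2.56e-06). *Cspg4* (-2.57), *Mcam* (-2.44), *Cd36* (-2.13), *Pdgfrb* (-1.88) and *Icam1* (-1.34) were also higher in CD34lo. *Cd44*, the hyaluronan receptor, had 332, 251 and 130 CPM in CD34hi and 151, 153 and 100 CPM in CD34lo (0.82, adjusted p = 0.0732, and 0.0039 with the replicate block).

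**Figure D5:**
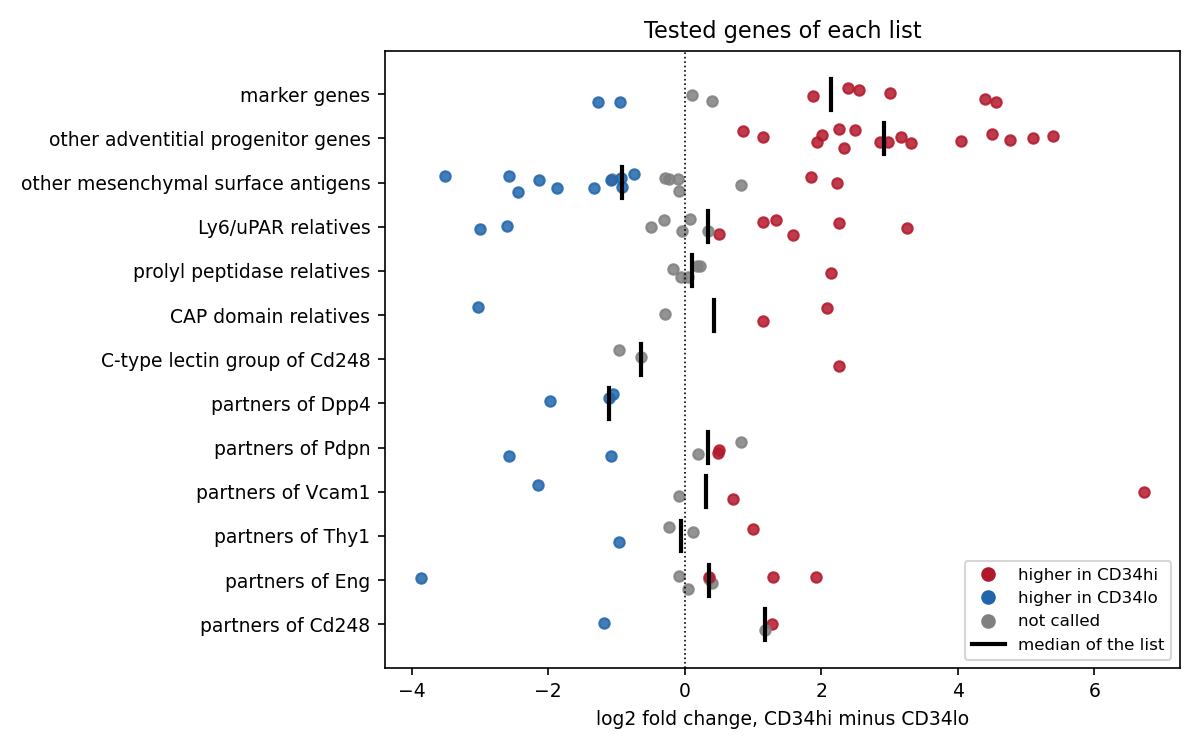
Log2 fold change (CD34hi minus CD34lo) of every tested gene in the marker set and in lists of related genes and binding partners; red points were called higher in CD34hi, blue points higher in CD34lo, grey points neither, and black bars are list medians. All tested adventitial progenitor genes lay to the right of 0, and most other mesenchymal surface antigens lay to the left.

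Relatives of the marker proteins were called in both directions. Of 13 tested Ly6/uPAR genes besides *Ly6a* and *Ly6c1*, 6 were higher in CD34hi and 2 higher in CD34lo, with a median log2 fold change of 0.35, against 16.9% and 18.7% of all tested genes called in these directions. *Cd59a*, a complement inhibitor outside the chromosome 15 stretch, was lower in CD34hi (2.01, 2.24 and 2.62 CPM) than in CD34lo (15.3, 12.2 and 14.4 CPM), with a log2 fold change of -2.61 (edgeR adjusted p = 1.49e-05). Of 4 tested CAP family relatives of *Pi16*, *Pi15* (2.09) and *Glipr2* (1.14) were higher in CD34hi and *Crispld2* was higher in CD34lo (-3.03, adjusted p = 1.83e-05). *Thbd*, thrombomodulin, was the only called gene among 3 C-type lectin relatives of *Cd248* (log2 fold change 2.25, adjusted p = 2.89e-05). *Cd93* and *Clec14a* had adjusted p-values of 0.0667 and 0.110, and of 0.0076 and 0.035 towards CD34lo with the replicate block.

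The binding partners of the marker proteins were described gene by gene. All 3 partners or substrates of DPP4 were higher in CD34lo, against 18.7% of all tested genes called in that direction. These were *Ada*, adenosine deaminase (log2 fold change -1.98, edgeR adjusted p = 1.32e-05), *Cxcl12* (-1.12, adjusted p = 0.00175) and *Cav1* (-1.05, adjusted p = 0.00371). A link of their levels to that of *Dpp4* was not tested. *Cxcl12* had 207, 225 and 322 CPM in CD34hi and 487, 588 and 555 CPM in CD34lo libraries. Of 6 tested partners of PDPN, *Lgals8* (0.50) and the ERM gene *Rdx* (0.49) were higher in CD34hi. *Ezr*, the ERM gene ezrin, was higher in CD34lo, with 19.0, 17.7 and 15.5 CPM in CD34hi and 126, 88.9 and 95.8 CPM in CD34lo (-2.57, adjusted p = 1.00e-05), as was *Cd9* (-1.07). *Clec1b*, the platelet receptor of PDPN, was at no more than 0.108 CPM and was not tested.

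Among the integrin chains that bind VCAM1, *Itgb7* had the largest difference of all genes named here. It had 93.2, 80.9 and 56.5 CPM in CD34hi and 0.719, 0.647 and 0.804 CPM in CD34lo libraries (log2 fold change 6.72, SE 0.25, edgeR adjusted p = 1.45e-06). Its chain partner *Itga4* was at no more than 1.13 CPM in any library and higher in CD34lo (-2.15, adjusted p = 0.00867). *Itga9* was modestly higher in CD34hi (0.71, adjusted p = 0.00276), and *Itgb1* had 693, 668 and 605 against 721, 608 and 757 CPM (adjusted p = 0.671). β7 integrins are best known from lymphocytes. Of the leukocyte genes, the T-cell gene *Cd3e* was higher in CD34hi, at 13.9 to 16.0 against 1.67 to 5.43 CPM (log2 fold change 1.98, adjusted p = 0.00228), while the pan-leukocyte gene *Ptprc* (CD45) was at 0.0221 to 0.359 CPM in CD34hi and 0.193 to 0.360 CPM in CD34lo and was not tested. The part of lymphocytes in the *Itgb7* level was not tested. Of 4 tested partners of THY1, *Itgb3* was higher in CD34hi (1.00, adjusted p = 0.00136) and *Sdc4*, syndecan 4, was higher in CD34lo (-0.96, adjusted p = 0.0112).

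Of 8 tested genes that act with ENG, 3 were higher in CD34hi, 1 was higher in CD34lo and 4 passed the test in neither direction. With the replicate block, 5 were higher in CD34hi. *Tgfbr2*, the type II TGF-β receptor, had 1320, 1824 and 1591 CPM in CD34hi and 386, 456 and 408 CPM in CD34lo (log2 fold change 1.92, edgeR adjusted p = 4.47e-05). *Smad1* (1.29, adjusted p = 0.00056) and *Smad5* (0.36, adjusted p = 0.0382), which carry BMP signals to the nucleus, were higher as well. *Gdf2*, which encodes BMP9, was the gene called higher in CD34lo (-3.86, adjusted p = 0.00209), at no more than 1.13 CPM in any library. *Acvrl1*, the type I receptor that pairs with endoglin, had an adjusted p of 0.0675 (0.046 with the replicate block). Of the 3 tested partners of CD248, *Fn1*, fibronectin, was higher in CD34hi (1.29, adjusted p = 0.00104) and *Mmrn2* was higher in CD34lo (-1.19, adjusted p = 0.00646). *Lgals3bp* had an adjusted p of 0.0845, and of 0.0042 towards CD34hi with the replicate block.

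The identity of the sorted cells and the presence of other cell types were checked with marker lists. The fibroblast genes *Dcn*, *Lum*, *Col1a1*, *Col1a2* and *Pdgfra* were high in all libraries and summed to 28400 to 35880 CPM in CD34hi and 48340 to 54230 CPM in CD34lo. Of these 5, 4 were higher in CD34lo. The cells were sorted as Pdgfrα+, so the level of *Pdgfra* is no separate check of their identity. *Cd24a*, the gene of an antigen that the sort selected against, was at 14.3 to 21.8 CPM in CD34hi and at 4.56 to 5.43 CPM in CD34lo. The sort also depleted cells with CD31 (*Pecam1*) or CD45 (*Ptprc*), whose genes are in the endothelial and leukocyte lists. Several marker genes are also expressed by endothelial cells, pericytes or leukocytes. Of 8 endothelial genes, *Tek* and *Kdr* were higher in CD34hi and *Pecam1*, *Cdh5* and *Emcn* were higher in CD34lo, and the other 3 were not called. With the replicate block, *Vwf* was also called higher in CD34lo (adjusted p = 0.0055). The sum of the 8 was 537 to 700 CPM in CD34hi and 61.6 to 105 CPM in CD34lo, and without *Tek* and *Kdr* it was 9.79 to 28.1 and 35.1 to 57.8 CPM. Of 6 pericyte genes, *Kcnj8* was higher in CD34hi and *Notch3*, *Cspg4*, *Mcam* and *Rgs5* were higher in CD34lo, with sums of 137 to 193 CPM in CD34hi and 157 to 241 CPM in CD34lo. The part of endothelial cells or pericytes in the higher *Vcam1* and *Thy1* of CD34lo libraries was not tested.

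Of 8 leukocyte genes, 3 were tested and only *Cd3e* was called, higher in CD34hi at 13.9 to 16.0 CPM, and the sums were 16.8 to 18.9 CPM in CD34hi and 6.53 to 9.83 CPM in CD34lo. In the CD34hi libraries *Ptprc*, *Adgre1* and *Tyrobp* were at 0.359, 0.0276 and 0.0828 CPM or less, and *Cd68* was at 1.79 to 2.34 CPM. The part of leukocytes in the *Ly6a* and *Ly6c1* levels was not tested. None of 6 epithelial genes was called by edgeR, limma-voom or DESeq2 at an adjusted p-value of 0.05, 0 had an unadjusted edgeR p-value under that level, and the sums were 32.9 to 39.7 CPM in CD34hi and 28.3 to 39.1 CPM in CD34lo. None of 3 tested lymphatic endothelial genes was called by any of these tools, again with 0 at an unadjusted p-value under 0.05, and the list of 4 summed to 2.79 CPM at most. The 3 mesothelial genes were not tested and summed to 0.360 CPM or less.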

How the data were processed

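TruSeq RNA v2 libraries were sequenced on a NextSeq instrument. The authors used the mouse genome GRCm38/mm10 for alignment and Rsubread for counting per gene. The annotation, the strand setting and the treatment of reads with several matches are not given in the sources used here. The deposited values are raw counts per gene and library, unfiltered and not normalized. Depth was 28764779 to 52402410 counts per library, where 3 counts are 0.0572 to 0.104 CPM, a limit that covers counting error only.

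Symbols matched 25275 of 27179 identifiers. In R 4.3.3, edgeR 4.0.16 applied filterByExpr by population (15219 genes kept), TMM normalization and the quasi-likelihood test without a block, where the study used voom with limma. RPKM use the gene length of the deposited table. The scripts were tested on simulated data. Alternatives used limma 3.58.1, DESeq2 1.42.0, other normalizations, filters and thresholds, thinned counts, and libraries left out. Sequences were handled in Python 3.11.15 with Biopython 1.88, from RefSeq start regions and GENCODE transcripts.

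Same-numbered libraries came from the same pool of mice per the labels, and their deviations from the group means correlated with r = 0.279, 0.0844 and 0.243. Replicates differed by more than sampling noise. The 10 genes and all lists were chosen with earlier results of these data known. The text names the 10 genes, genes of the lists, including those with the largest difference in each direction, and their neighbors on the chromosome. The result of 1 marker list is not reported here.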

Additional observations from a re-analysis of the deposited data

How the results depend on the processing

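The 10 log2 fold changes were recomputed under 18 alternatives each, 180 in all, and 178 kept their direction and their side of the threshold. The exceptions were *Eng*, which was -0.0022 without pool 3 (adjusted p = 0.991) and at most 0.23 with another pool or library left out, and *Fap*, which passed the threshold with the replicate block in limma-voom (0.40, adjusted p = 0.0367). That fit gave 7 of the 10 genes higher in CD34hi, and the replicate block changed no other call among the 10. Every other fit gave 6 higher in CD34hi and 2 higher in CD34lo, also at an adjusted p-value of 0.01 and with any pool or library left out. With a minimum absolute log2 fold change of 1, *Thy1* was lost, which left 1 gene higher in CD34lo.

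Over all genes, 5411 were called, 3444 at an adjusted p-value of 0.01 and 2986 with the minimum log2 fold change of 1. With the replicate block edgeR called 6161. With pools or libraries left out, between 3468 (without pool 1) and 5236 were called. Within-library ratios kept their direction with each pool left out, at 3.89 to 4.18 for *Dpp4* to *Fap* and -0.64 to -0.61 for *Ly6a* to *Ly6c1* on the log2 scale. Their mean differences within pools (the replicate block) were 4.06 and -0.63. Ordered by CPM without length, 5 genes took another place in CD34hi and 7 in CD34lo.

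With 3 libraries in each population the spread was estimated from few samples, and *Fap* itself was called under 1 of 18 alternatives. Without the CD34hi library of pool 3, which differed most from its replicates, 5236 genes were called.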
